A study of Mus musculus with 8 samples.

Results

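The genes described here serve protein folding in the endoplasmic reticulum (ER), the unfolded protein response and the removal of misfolded ER proteins. They are a list of 35 gene symbols, chosen by function with earlier results of these data known. A probe set with that single symbol was found for 34 of the 35, out of 22180 genes of the array with such a probe set. Ero1lb is carried under its current symbol Ero1b. Pdia4 has no value here, because its probe set is shared with a microRNA gene. Liver RNA of male mice, labelled C57BL/6J, was measured on Affymetrix whole-transcript arrays, 4 from wild type littermates and 4 from mice carrying the E167K variant of Tm6sf2 as a knock-in, written TM6SF2 E167K knock in. The labels give diet in contradictory ways, as a high-fat diet for 20 weeks for the series and as a sucrose-rich fat-free diet or chow for 14 weeks on each array, so no result is tied to a diet. The sources used here do not give age, hour of collection or whether each array is a separate animal. The p-values therefore reflect only how far these arrays scatter, and that scatter may be technical.

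Hepatocytes secrete large amounts of protein and lipoprotein through the ER, the membrane in which the Tm6sf2 protein also resides. When unfolded protein builds up there, the sensors Ern1 (IRE1), Eif2ak3 (PERK) and Atf6 signal to the nucleus: IRE1 splices the mRNA of the transcription factor Xbp1, ATF6 is cut free to become a transcription factor itself, and PERK slows translation and raises ATF4. Their targets include ER chaperones, disulfide enzymes and the machinery that pulls misfolded proteins out of the ER for destruction, called ER-associated degradation. The array measured the amount of each transcript, and neither Xbp1 splicing nor cleavage or phosphorylation of the sensors.

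The livers carried hepatocyte transcripts at near-equal levels, with a mean of 8 markers of 12.48 to 12.52 (log2 expression) across the wild types and of 12.51 to 12.56 across the knock-ins. Knock-in replicate 3 stood apart by transcripts of another organ. All 6 measured markers of pancreatic acinar cells, digestive enzymes such as Ctrb1, Cela1 and Cel, were highest there, at 7.96 to 12.32. Knock-in replicate 4 was second highest for all 6, at 3.01 to 7.04, and the other 6 arrays lay between 1.88 and 5.04. Acinar cells are rich in ER and in the transcripts described here, so results are also given without these arrays.

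**Figure D1:**
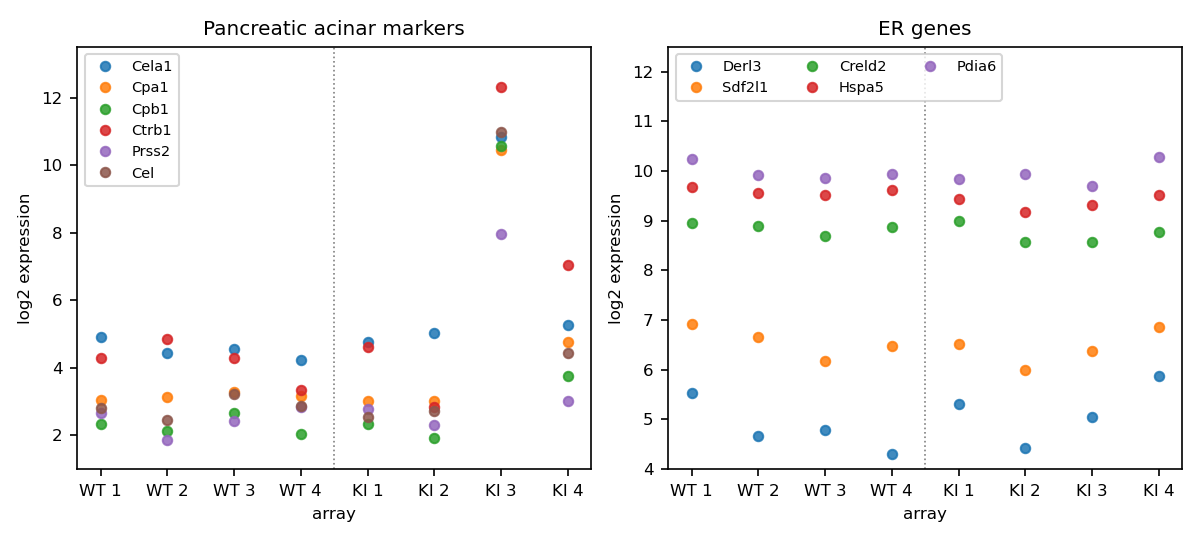
Log2 expression of 6 pancreatic acinar markers (left) and of 5 ER genes (right) in each of the 8 arrays, WT for wild type and KI for knock-in, with replicate numbers from the labels and 1 point for each gene and array. The acinar markers lie at 7.96 to 12.32 in knock-in replicate 3, where Derl3 is at 5.05 and Hspa5 at 9.32, and Derl3 is highest, at 5.88, in knock-in replicate 4.

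Many promoters of these genes carry the ER stress response element (ERSE), in which the factor NF-Y binds the first block and ATF6 the last. It was searched on both strands, as CCAAT and CCACG with any 9 bases between them, in RefSeq promoter windows of the build GRCm38.p6, from 250 bases before to 50 after a transcript start. Windows were found for 30 of the 35 genes, all but Atf6, Hyou1, Manf, Derl1 and Sec61a1. The element was present in 10 of these 30 genes, and in 37 of all 27025 genes with a window (0.137%). The elements are shown because the folding genes that hold them are compared below with those that do not, and capitals mark the fixed letters of the motif.
Hspa5, chr2:34772025-34772043, plus strand: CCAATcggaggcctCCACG
Hsp90b1, chr10:86705638-86705656, minus strand: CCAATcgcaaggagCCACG
Hsp90b1, chr10:86705533-86705551, plus strand: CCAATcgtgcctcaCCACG
Calr, chr8:84847075-84847093, plus strand: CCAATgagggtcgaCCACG
Canx, chr11:50325800-50325818, minus strand: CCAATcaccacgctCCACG
Dnajc3, chr14:118937827-118937845, plus strand: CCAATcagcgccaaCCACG
Pdia6, chr12:17266491-17266509, plus strand: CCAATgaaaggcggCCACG
Creld2, chr15:88819520-88819538, minus strand: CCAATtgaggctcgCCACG
Ero1b, chr13:12565682-12565700, minus strand: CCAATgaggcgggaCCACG
Syvn1, chr19:6046532-6046550, plus strand: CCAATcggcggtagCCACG
Derl3, chr10:75893242-75893260, minus strand: CCAATggggaagtcCCACG

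A shorter form, ERSE-II (ATTGG and CCACG with any 1 base between them), was present in 2 of the 30 genes, Dnajb11 and Herpud1. It was present in 0.0444% of all genes with a window. The UPRE core (TGACGTGG), bound by XBP1, was present in Vcp alone among the 30 and in 0.714% of all genes with a window. The element bound by ATF4 with C/EBP partners (TGATGNAA) was present in Herpud1 alone among the 30 and in 4.51% of all genes with a window. No matches to different motifs overlapped. The 250 bases before the start are shown for Hspa5, the chaperone whose groups did not overlap, and for Herpud1, which had the largest difference of the list, with the fixed motif letters in capitals (ERSE in Hspa5, ERSE-II and the reverse complement of the ATF4 element in Herpud1).
Hspa5, chr2:34771840-34772089, plus strand: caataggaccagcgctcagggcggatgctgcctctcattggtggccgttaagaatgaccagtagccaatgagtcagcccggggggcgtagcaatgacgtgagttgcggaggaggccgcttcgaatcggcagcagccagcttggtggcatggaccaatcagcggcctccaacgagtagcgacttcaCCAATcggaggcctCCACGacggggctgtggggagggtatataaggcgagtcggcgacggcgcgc
Herpud1, chr8:94386179-94386428, plus strand: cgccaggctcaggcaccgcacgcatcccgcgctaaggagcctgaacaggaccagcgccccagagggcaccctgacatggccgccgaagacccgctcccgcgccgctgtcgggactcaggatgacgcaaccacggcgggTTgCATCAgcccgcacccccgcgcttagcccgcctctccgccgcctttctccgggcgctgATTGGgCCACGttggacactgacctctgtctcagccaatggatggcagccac

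**Figure D2:**
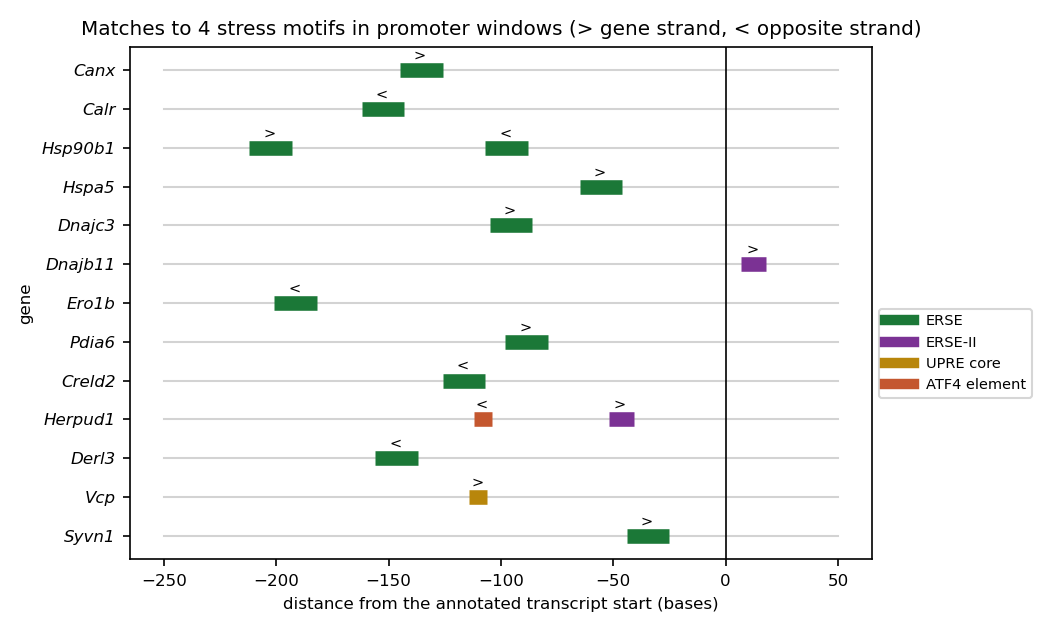
Positions of motif matches in the promoter windows of the 13 genes that hold any, in bases from the annotated transcript start, with arrows for the strand. Hsp90b1 holds 2 ERSE matches, and the ERSE-II match of Dnajb11 lies just after the start, at 7 to 17 bases.

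Knock-in was compared with wild type to ask whether the variant goes with a different level of the ER folding machinery. No gene of the list passed the threshold: 0 of 34 had a limma adjusted p under 0.05, where 0.0669% of all 13449 tested genes did, and the lowest adjusted p of the list was 0.371. At an unadjusted p under 0.05 there were 3 of 34 (8.82%), against 11.3% of all tested genes. Edem1 was higher, where 6.01% of all genes were, and Hspa5 and Edem3 were lower, where 5.29% were. The groups did not overlap in 3 genes (8.82%), against 7.16% of all tested genes. In Atf6 all knock-in arrays lay above, as in 3.96% of all tested genes, and in Hspa5 and Edem3 all lay below, as in 3.2%. Both shares lie near the background, so neither count sets the list apart.

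The differences were small. The largest was 1.3-fold, and 29 of 34 were under 0.2 on the log2 scale, as were 72.2% of all tested genes. In 31 of 34 the 95% interval of the difference lay inside a 1.5-fold change in either direction, as in 73.8% of all tested genes. The exceptions were Herpud1, Derl3 and Sec61b, whose intervals reach further up. In these shares the tested genes were not matched to the list for expression level. Of the 34 genes, 22 were lower and 12 higher in the knock-in, with a median of -0.05, beside 48.9% lower and a median of 0.0046 over all tested genes.

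That lean to lower values varied with single arrays. Without knock-in replicate 3 it was 19 of 34 with a median of -0.02, and 0 genes had an unadjusted p under 0.05 (10.2% of all tested genes). Without knock-in replicate 4 it was 23 with a median of -0.09, and 2 genes had such a p (11.5%). Without both it was 23 with a median of -0.05, and 1 gene had such a p (10.6%). Without wild type replicate 1 it was 18 with a median of -0.0084, and without knock-in replicate 2 it was 18 with a median of -0.0062. A clock score was formed by subtracting the mean of 3 activators of the circadian clock from that of 5 of its output genes. The activators were Arntl, Npas2 and Clock, and the outputs Ciart, Per3, Dbp, Tef and Nr1d2. In these same data all 3 activators were lower in the knock-in at an unadjusted limma p under 0.05 (5.29% of all tested genes). All 5 outputs were higher at such a p (6.01%). The score ran from -2.15 to -0.17 over the wild types and from -0.34 to 1.65 over the knock-ins. With that score as a covariate, 11 of 34 genes were lower and the median was 0.07. The score nearly separated the genotypes, so its part and that of the genotype cannot be told apart here. With the score in the fit, the SE of the Hspa5 difference was 0.16, against 0.10 without it. All values given with this covariate are uncertain for that reason. The part of the clock genes in these values was not tested further.

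**Figure D3:**
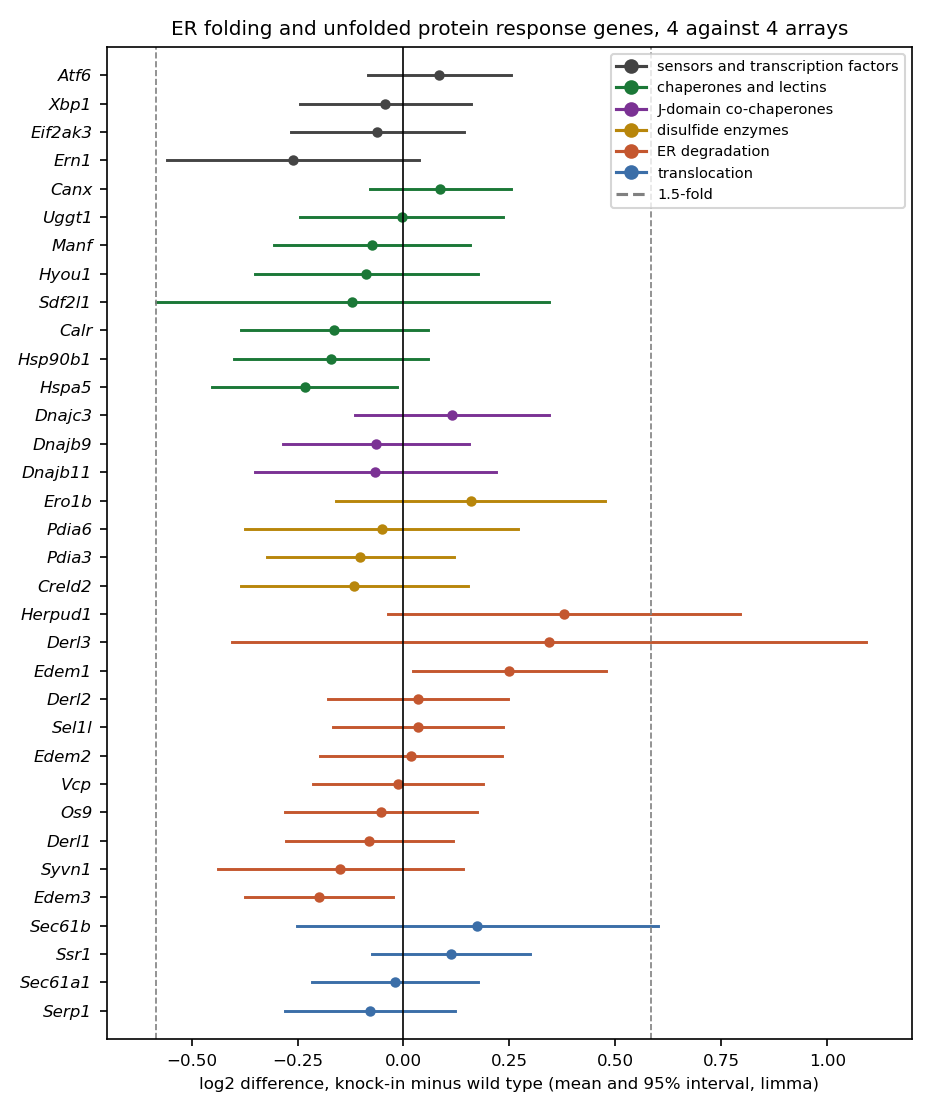
Difference between knock-in and wild type for the 34 genes, as log2 means (points) with 95% intervals from limma (lines), coloured by role, 4 arrays a group, with dashed lines at a 1.5-fold change. Of the intervals, 31 lie inside the dashed lines, and those of Herpud1, Derl3 and Sec61b cross the upper one.

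Among the sensors, Atf6 (probe set 17229556) lay at 9.62, 9.74, 9.77 and 9.73 in wild type replicates 1 to 4 and at 9.79, 9.80, 9.84 and 9.77 in knock-in replicates 1 to 4. The lowest knock-in value was just above the highest wild type value, and the arrays of both groups were close together. The difference was 0.08 (SE 0.07, 95% interval -0.08 to 0.25, limma adjusted p = 0.727). Ern1 (17270888), the kinase and nuclease that splices Xbp1, lay at 8.20, 8.37, 8.41 and 8.03 in wild type and at 8.04, 7.79, 7.88 and 8.27 in knock-in. Knock-in replicates 2 and 3 were lowest, while knock-in replicate 4 was above 2 of the wild type arrays. Its difference of -0.26 (SE 0.13, adjusted p = 0.50) was the lowest of the list and turned to 0.16 with the clock score as a covariate (adjusted p = 0.938).

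Eif2ak3 (17459425), the PERK kinase, lay at 7.06, 7.31, 7.20 and 7.23 in wild type and at 7.27, 7.04, 7.15 and 7.09 in knock-in. Xbp1 (17246967), the transcription factor downstream of Ern1, lay at 9.68, 9.85, 9.89 and 9.82 in wild type and at 9.73, 9.69, 9.72 and 9.92 in knock-in. In both genes the groups lay on top of each other. The differences were -0.06 (SE 0.09, interval -0.27 to 0.14, adjusted p = 0.858) for Eif2ak3 and -0.04 (SE 0.09, interval -0.24 to 0.16, adjusted p = 0.912) for Xbp1, and the latter turned to 0.06 with the clock score as a covariate.

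**Figure D4:**
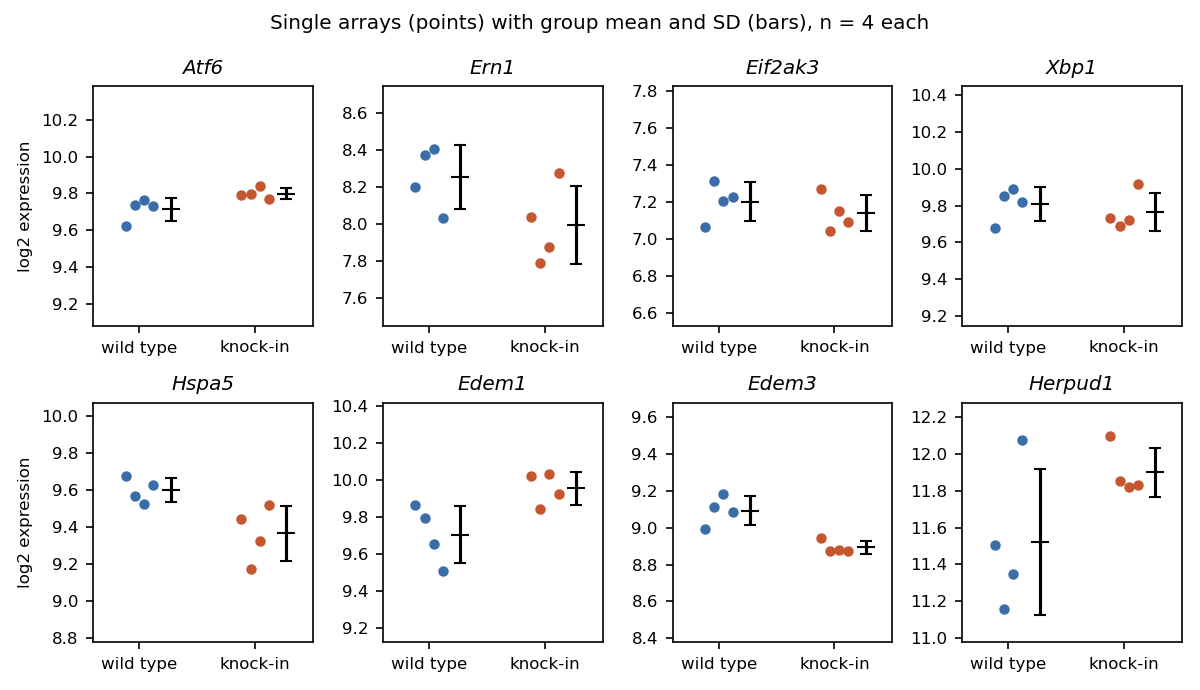
Log2 expression of 8 genes in single arrays (points, 4 wild type and 4 knock-in, in replicate order from left to right) with group mean and SD (bars); each panel spans the same range of the log2 scale. Hspa5 and Edem3 lie lower in all 4 knock-in arrays, Atf6 lies just higher in all 4, and wild type replicate 4 of Herpud1 reaches the knock-in values.

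Of the 8 chaperones and lectins, 7 were lower in the knock-in, with a median of -0.10, and 0 passed the threshold. Hspa5 (17370103), or BiP, the ER Hsp70 that binds unfolded chains and holds the sensors inactive, lay at 9.67, 9.57, 9.52 and 9.63 in wild type and at 9.44, 9.17, 9.32 and 9.52 in knock-in. Knock-in replicate 4 came to within the rounding of wild type replicate 3, and knock-in replicate 2 was lowest. The group means were 9.60 ± 0.07 and 9.36 ± 0.15 (SD, n = 4), and the difference was -0.23 (SE 0.10, interval -0.45 to -0.02, limma adjusted p = 0.393). It was -0.22 without knock-in replicate 3, -0.29 without knock-in replicate 4 and -0.29 without both, and -0.07 with the clock score as a covariate (adjusted p = 0.986).

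Hsp90b1 (17243738), the ER Hsp90 known as GRP94, lay at 12.32, 12.13, 11.90 and 12.05 in wild type and at 11.95, 11.93, 11.86 and 11.98 in knock-in. Calr (17511183), the soluble lectin calreticulin, lay at 12.11, 11.88, 11.88 and 11.95 in wild type and at 11.97, 11.71, 11.68 and 11.81 in knock-in. In both, wild type replicate 1 was the highest array and the groups overlapped. The differences were -0.17 (SE 0.10) and -0.16 (SE 0.10), each with a limma adjusted p of 0.574. Both genes were bright, with means over the 8 arrays of 12.01 and 11.87, where the highest value of any gene was 13.66. Whether the arrays understate differences at such levels was not tested. Canx, the membrane-bound partner lectin of Calr, was on the other side at 0.09 (SE 0.07, adjusted p = 0.717). Hyou1, a nucleotide exchange factor of BiP, was at -0.09 (SE 0.12), and Uggt1, which re-glucosylates misfolded glycoproteins so that they bind the lectins again, was at -0.0042 (SE 0.11). Manf, a secreted ER stress protein, was at -0.07 (SE 0.10).

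Sdf2l1, a partner of BiP, varied more between arrays than most genes: its SD within groups, 0.33, was at the 84.2th percentile of all tested genes. It lay at 6.93, 6.66, 6.18 and 6.47 in wild type and at 6.51, 6.00, 6.39 and 6.85 in knock-in. Each group thus spanned more than the difference between them, which was -0.12 (SE 0.20, adjusted p = 0.882).

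The J-domain co-chaperones, which hand clients to BiP and start its ATP cycle, had no gene at an unadjusted p under 0.05. Dnajb9 was at -0.06 (SE 0.10), Dnajb11 at -0.07 (SE 0.13) and Dnajc3 at 0.11 (SE 0.10). Among the disulfide enzymes, 3 of 4 were lower and 0 had an unadjusted p under 0.05. Pdia3, the isomerase that works with the lectins, was at -0.10 (SE 0.10), Pdia6 at -0.05 (SE 0.14), and Creld2, an ER stress-induced disulfide isomerase, at -0.12 (SE 0.12). Ero1b, the oxidase that recharges these enzymes, was at 0.16 (SE 0.14, adjusted p = 0.729).

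The ER degradation genes went both ways, 6 higher and 5 lower, with a median of 0.02. The EDEM mannosidases, which trim glycans to mark proteins for removal, differed among themselves. Edem1 (17461433) lay at 9.86, 9.79, 9.66 and 9.51 in wild type and at 10.02, 9.85, 10.03 and 9.92 in knock-in. Only knock-in replicate 2 fell below a wild type array, replicate 1, and by a small margin. The means were 9.71 ± 0.16 and 9.96 ± 0.09 (SD, n = 4), a difference of 0.25 (SE 0.10, interval 0.02 to 0.48, limma adjusted p = 0.383).

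Edem3 (17218209) lay at 8.99, 9.11, 9.18 and 9.08 in wild type and at 8.94, 8.87, 8.88 and 8.87 in knock-in. The knock-in arrays were tightly grouped below all wild type arrays, with an SD of 0.03 against 0.08. The difference was -0.20 (SE 0.08, interval -0.37 to -0.02), and its adjusted p, 0.371, was the lowest of the list. Edem2 was at 0.02 (SE 0.09). Over the 8 fits that left out 1 array each, Edem1 was at 0.18 to 0.30 and Edem3 at -0.23 to -0.17. Without knock-in replicate 3 they were at 0.22 and -0.20, close to the values over all arrays, although neither then had an unadjusted p under 0.05.

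Herpud1 (17504005), which brings ubiquitin ligases and proteasomes to the ER membrane, had the largest difference, 0.38 (SE 0.18, interval -0.04 to 0.79, adjusted p = 0.477). It lay at 11.51, 11.16, 11.35 and 12.07 in wild type and at 12.10, 11.85, 11.82 and 11.83 in knock-in. Wild type replicate 4 was as high as the highest knock-in array, and the remaining wild type arrays were below all knock-in arrays. Without wild type replicate 4 the difference was 0.56 (adjusted p = 0.201), and with the clock score as a covariate it was -0.01 (adjusted p = 0.997). Of the 2 genes with ERSE-II in their windows, Dnajb11 thus lay slightly lower and Herpud1 higher.

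Derl3, one of the derlins that form the channel for outgoing proteins, had the widest spread of the list, with an SD within groups of 0.56 (97.5th percentile of all tested genes). It lay at 5.53, 4.67, 4.79 and 4.31 in wild type and at 5.31, 4.43, 5.05 and 5.88 in knock-in. The groups overlapped over most of their range, with knock-in replicate 4 above all wild type arrays and wild type replicate 4 below all knock-in arrays. Of the arrays with acinar transcripts, replicate 4 was the highest of all 8 and replicate 3 lay between the others, and the part of these transcripts in the Derl3 values was not tested. The difference was 0.34 (SE 0.33, adjusted p = 0.754), or 0.38 without knock-in replicate 3, 0.05 without replicates 3 and 4, and 1.4 with the clock score as a covariate (adjusted p = 0.643). Derl1 and Derl2 were at -0.08 (SE 0.09) and 0.03 (SE 0.09).

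The ubiquitin ligase core of this pathway, Syvn1 with its partner Sel1l, was at -0.15 (SE 0.13) and 0.03 (SE 0.09). Os9, a lectin that delivers clients to it, was at -0.05 (SE 0.10), and Vcp, the ATPase that extracts them, at -0.01 (SE 0.09). None of these 4 had an unadjusted p under 0.05. In protein entry, Sec61a1, the channel itself, was at -0.02 (SE 0.09), the channel-associated Ssr1 at 0.11 (SE 0.08) and Serp1 at -0.08 (SE 0.09). The small channel subunit Sec61b lay close to the detection limit, above it in 2 of 4 arrays of each group, so its value of 0.17 (SE 0.19) says little about the transcript.

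Within each genotype many of the genes shared an order of arrays. In wild type, replicate 1 was the highest of the 4 arrays for 18 of 34 genes, where it was highest for 23.7% of all tested genes. In knock-in, replicate 4 was highest for 22 of 34, more than its share among all tested genes, and replicate 2 was lowest for 19 and highest for none. In the genes with an ERSE, wild type replicate 1 was highest for 9 of 10, with a median of 0.18 above the group mean, and knock-in replicate 4 for 7 of 10. In the 24 genes where no ERSE was found, which include 5 without a window, wild type replicate 1 was highest for 9 and its median was 0.03, while knock-in replicate 4 was highest for 15. Knock-in replicate 2 was lowest for 5 of the 10 and for 14 of the 24. Knock-in replicate 3 was lowest for 5 of the 10 as well, with Creld2 tied between these arrays, and for 6 of the 24. It was lowest for 24.7% of all tested genes. The high place of knock-in replicate 4 and the low place of knock-in replicate 2 were thus seen in both sets. The high place of wild type replicate 1 was clearer in the genes with an ERSE, and the part of the element in it was not tested. Wild type replicate 1 was the lowest of its group for Atf6, Eif2ak3 and Xbp1, whereas knock-in replicate 2 was lowest for Ern1, Eif2ak3 and Xbp1 and knock-in replicate 4 highest for Ern1 and Xbp1, as in many of the other genes.

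**Figure D5:**
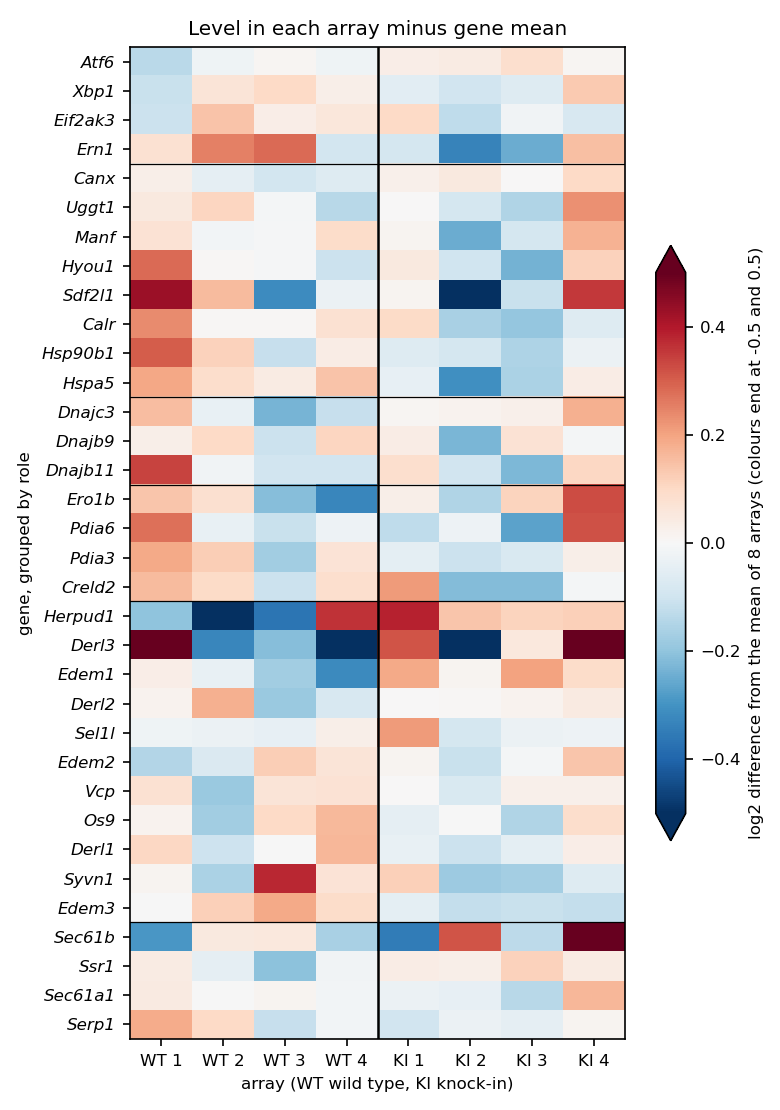
Level of each of the 34 genes in each array minus its mean over the 8 arrays (log2, red higher and blue lower), with rows grouped by role and columns by genotype. Wild type replicate 1 and knock-in replicate 4 are red for most chaperones, co-chaperones and disulfide enzymes, and knock-in replicate 2 is mostly blue.

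Between genotypes the genes with an ERSE went both ways, with 6 lower and 4 higher and a median of -0.08, beside -0.05 in the other 24. Hspa5, Hsp90b1, Calr, Syvn1, Creld2 and Pdia6 were lower, and Derl3, Ero1b, Dnajc3 and Canx were higher. The difference between the genotype means in Hspa5 (0.23) was smaller than the range of its knock-in arrays (0.35 from lowest to highest). It was larger than the range of its wild type arrays (0.15). The median SD within groups was 0.12 over the list, against 0.19 over all tested genes. The tested genes were not matched to the list for expression level, so this does not set the list apart.

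Further genes of the ER were read from companion lists. In the PERK and ATF4 arm, 7 of 11 tested genes were higher and 4 lower, with a median of 0.13, and 0 passed the threshold. Chac1, a glutathione-degrading ATF4 target, lay at 4.30, 4.93, 3.86 and 4.52 in wild type and at 5.95, 5.86, 5.63 and 5.14 in knock-in, with all knock-in arrays above. Its difference was 1.24 (SE 0.25, limma adjusted p = 0.119), and of all alternatives run it passed under a trended and robust prior alone (adjusted p = 0.0486), with a range of 0.0486 to 0.764 over them. Vldlr, a lipoprotein receptor and ATF4 target, was at 0.46 (SE 0.18, adjusted p = 0.363). The stress factor Ddit3 (CHOP) lay on the other side, at -0.28 (SE 0.17).

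Of 11 tested disulfide enzymes outside the list, 5 were higher and 6 lower, and Pdia5 was lowest. It lay at 8.75, 8.73, 8.55 and 8.63 in wild type and at 8.16, 8.26, 7.94 and 8.50 in knock-in, with no overlap, a difference of -0.45 (SE 0.12, adjusted p = 0.242). Among other stress regulators, 3 of 11 were higher and 8 lower, and the ER-anchored factor Creb3 was at -0.22 (SE 0.08, adjusted p = 0.335). In other ER degradation genes, 6 of 12 were higher, with the lectin Erlec1 at 0.27 (SE 0.09, adjusted p = 0.325) and Faf2, which recruits Vcp, at -0.20 (SE 0.08, adjusted p = 0.387). In translocation and signal peptide cleavage, 12 of 15 were higher, led by the signal peptidase subunit Sec11c at 0.31 (SE 0.10, adjusted p = 0.294). N-glycosylation genes had 10 of 14 higher and none at an unadjusted p under 0.05, and the smallest p was that of Rpn1, at -0.19 (SE 0.10, adjusted p = 0.503). Over these 6 lists 0 genes passed the threshold. Of all tested genes, 51.1% were higher and 48.9% lower, and the groups did not overlap in 7.16%. An unadjusted limma p under 0.05 was seen in 2 of 11 genes of the PERK and ATF4 arm, against 11.3% of all tested genes. It was seen in 1 of 11 disulfide enzymes, 1 of 11 stress regulators and 1 of 15 translocation genes. Of the 12 ER degradation genes, 1 higher and 1 lower gene had such a p.

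Cell type markers were read beside these values, since in bulk liver fewer cells of a type and less RNA per cell cannot be told apart. Plasma cells are rich in ER, and of 7 measured markers of B and plasma cells the joining chain gene Jchain was higher by 1.04 (SE 0.25, limma adjusted p = 0.184). The other tested markers were at 0.06 (Cd79a), 0.02 (Mzb1), 0.01 (Pou2af1), -0.08 (Ms4a1) and -0.38 (Cd79b). The mean of the 7 markers was 4.11 to 4.52 over the wild types and 4.27 to 4.62 over the knock-ins. The plasma cell receptor Tnfrsf17 was below the detection limit in all 8 arrays. Kupffer cell markers had means of 8.03 to 8.95 and 7.94 to 8.66, and sinusoidal endothelial markers 8.99 to 9.14 and 9.06 to 9.22. Of the endothelial markers, Lyve1 was at 0.73 (SE 0.23, limma adjusted p = 0.295). The others were at 0.07 (Oit3), 0.0069 (Clec4g), -0.04 (Stab1), -0.09 (Stab2) and -0.17 (Kdr). Stellate cell markers had means of 7.96 to 8.41 and 7.91 to 8.41, and cholangiocyte markers 4.15 to 4.48 and 4.19 to 4.66. Neutrophil and T and NK cell markers lay at means of 3.16 to 4.30 in both groups. Over these lists 0 markers passed the threshold, and the part of other cells in the results was not tested.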

How the data were processed

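The values deposited by the authors are log2 expression, already normalized; the submitters' processing notes name RMA and limma, with no version. Total RNA (400 ng) was turned into biotin-labelled cDNA, per the labels' protocols. The sources used here do not give a genome build or annotation version. The lowest value is 0.32 and the highest 13.66, and the arrays have medians between 3.73 and 3.80. Because RMA equalizes the distributions, it would remove a shift common to most genes. Arrays have no read depth, and their number limits the precision.

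Of 41345 probe sets, 23521 have exactly 1 symbol in the platform annotation, 1814 several and 16010 none listed. Symbols were updated through Entrez identifiers against a RefSeq table of GRCm38.p6 (23328 matched, 193 kept their listed symbol). Where a gene had several probe sets, the brightest on average stood for it. The detection limit was each array's 40th percentile (3.46 to 3.50), and the 13449 genes above it on 4 or more of the 8 arrays were tested. All 34 listed genes passed. The genotypes were compared with lmFit and eBayes of limma 3.58.1 (R 4.3.3), two-sided, with p-values adjusted by Benjamini-Hochberg across the 13449 genes and a threshold of 0.05. Differences are log2 knock-in minus wild type. The fit was tested on simulated data with noise independent between genes and arrays, which does not cover the shared order of arrays described above.

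The listed genes, companion lists and marker lists were chosen with earlier results of these data known; the promoter motifs were added after values were seen. Values for single arrays are given for the sensors, Xbp1, Hspa5 and each gene with an unadjusted p under 0.05. Hsp90b1, Calr, Sdf2l1, Herpud1 and Derl3 were added after their values were seen. From companion lists, up to 4 genes with an unadjusted p under 0.05 were named, or the gene with the smallest p; Ddit3 was added after its value was seen. Alternatives were other filters, scalings, priors, weights, probe set means, a replicate block, a clock score and leaving out arrays.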

Additional observations from a re-analysis of the deposited data

Results flagged for a closer look

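Of 96 groups of 4 arrays, 8 had 1 array far from the other 3 by Dixon's test at its 95% critical value, where chance marks about 1 in 20. In the ER genes these were knock-in replicate 4 of Dnajc3 (11.1, others 10.93 to 10.95), knock-in replicate 1 of Herpud1 (12.1, others 11.82 to 11.85) and knock-in replicate 1 of Edem3 (8.94, others 8.87 to 8.88). Wild type replicate 2 of Vcp was low (10.23, others 10.49 to 10.50), knock-in replicate 3 of Ssr1 was high (9.16, others 9.08 to 9.09), and knock-in replicate 4 of Vldlr was low (4.79, others 5.27 to 5.31). Of the pancreatic acinar markers, knock-in replicate 3 was far above the others for Cela1 (10.84, others 4.75 to 5.27) and Prss2 (7.96, others 2.29 to 3.01).

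Probe sets not used above gave a second reading of 5 ER genes. The second probe set of Derl2 had a knock-in mean of 4.97 with all knock-in arrays above the wild type range of 4.06 to 4.57, a difference of 0.55 (SE 0.15, limma adjusted p = 0.235 over 14165 probe sets). The second probe set of Ssr1 had a knock-in mean of 5.27 above a wild type range of 4.64 to 5.06, a difference of 0.39 (SE 0.12, adjusted p = 0.265). The brighter probe sets of the same genes, used above, were at 0.03 and 0.11. The second probe sets of Edem1 and Vcp were at 0.13 (SE 0.11) and -0.08 (SE 0.15), and that of Sec61b was below the detection limit.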

How the results depend on the processing

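Under all 18 alternatives, 0 of the ER genes tested passed the threshold, and the lowest adjusted p of any was 0.201. The count at an unadjusted p under 0.05 was 3 (1 higher, 2 lower; 11.3% of all tested genes). It was 0 with the replicate block (9.78%), 1 with knock-in arrays 3 and 4 left out (10.6%, chosen after seeing the data) and 0 to 2 without single arrays (8.95% to 11.5%). It was 4 with the trended and robust prior (12.2%), 4 with the mean of probe sets (11.3%) and 4, all higher, with the clock score (6.48%). The count of genes whose groups did not overlap was 3 (7.16% of all tested genes), 2 with quantile normalization (7.07%) or median centring (7.01%), 4 with the mean of probe sets (7.1%), and 3 to 7 without single arrays, where the share of all tested genes was 9.66% to 12.1%. With knock-in arrays 3 and 4 left out it was 4 (21.9%). The median difference was -0.05, and 0.073 with the clock score as a covariate. Of 34 genes, 16 kept their sign under every alternative run. With the clock score, signs turned to 0.16 for Ern1, 0.062 for Xbp1, 0.20 for Hyou1, 0.32 for Uggt1, 0.43 for Sdf2l1, 0.10 for Manf, 0.21 for Dnajb11, 0.0030 for Pdia3, 0.23 for Pdia6, 0.077 for Creld2, 0.13 for Sec61a1, 0.0047 for Serp1 and -0.013 for both Herpud1 and Vldlr. With knock-in arrays 3 and 4 left out, Edem2 turned to -0.040. Leaving out single arrays, signs turned within -0.081 to 0.046 for Uggt1, -0.26 to 0.025 for Sdf2l1, -0.11 to 0.0010 for Dnajb9, -0.11 to 0.035 for Dnajb11, -0.17 to 0.032 for Pdia6, -0.029 to 0.060 for Edem2, -0.032 to 0.069 for Sel1l, -0.021 to 0.10 for Derl2, -0.078 to 0.011 for Vcp and -0.079 to 0.023 for Sec61a1. The cause of these turns was not tested. Same-numbered arrays of the genotypes correlated at -0.11 to 0.10 in their deviations from group means, and differently numbered ones at -0.09 to 0.11. Whether the replicate numbers pair the samples cannot be told from these values. Over all genes the count past the threshold was 9, and 1 to 73 under the alternatives.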

Other observations

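Of the 37 genes with an ERSE in a promoter window, 8 tested genes outside the ER list were read as a description, chosen by the motif after values were seen. Of these 8, 7 were lower in the knock-in and 1 higher, with a median of -0.13. Over all tested genes 48.9% were lower, with a median of 0.0046. None of the 8 had an unadjusted p under 0.05, against 11.3% of all tested genes (limma, lowest adjusted p = 0.458).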
